A study of Mus musculus with 6 samples.

Results

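The T Reg class and the T Cell class are groups of lung lymphocytes that the submitters named in their deposited annotation of single cells. Members were every cell with either name in the 4 libraries from postnatal day 21: 940 cells of the T Reg class and 2602 cells of the T Cell class, of 33061 cells with a class at day 21 and 55882 in the whole series. The 2 libraries from postnatal day 1 held 0 cells with either name. Each library was made from lung tissue pooled from 3 C57BL/6N mice of 1 sex (genotype WT), with litters mixed at random, and live cells were sorted before droplet-based 3′ RNA sequencing. The 4 groups were female room air, male room air, female hyperoxia and male hyperoxia, all killed at day 21. Room air was 21% oxygen throughout. Hyperoxia pups breathed 95% oxygen between postnatal days 1 and 5 and recovered in room air until day 21. There was 1 library per sex and treatment, so no group had a replicate, and individual mice could not be told apart.

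Regulatory T cells (Treg) are CD4 T cells that restrain other immune cells, and they are defined by the transcription factor Foxp3 together with the interleukin 2 receptor chain Il2ra and the inhibitory receptor Ctla4. Most other T cells of a young lung carry an alpha-beta T cell receptor, and naive ones circulate between blood and lymph nodes with the help of Ccr7 and S1pr1. The lung also holds lymphocytes that stay in the tissue. Group 2 innate lymphoid cells (ILC2) lack a T cell receptor, depend on Gata3 and respond to interleukin 33 through its receptor Il1rl1. Gamma-delta T cells carry a receptor built from Trdc and Tcrg chains, and some of them make interleukin 17.

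Depth was similar in both classes in 3 of the 4 libraries. Median UMIs per cell (unique molecular identifiers, each 1 captured RNA molecule) were 9197.5 to 11165 in the T Reg class and 9735 to 15432 in T cells, where the highest value was that of female room air and the other 3 were at most 11171. Female room air also held the fewest T cells, 184, against 721 to 882 in the other libraries. No cell barcode of either class was shared between libraries (0 in each of the 6 pairs). Xist, which is transcribed from the inactive X chromosome, had a UMI in 96.5% of T Reg class cells and 92.9% of T cells in female room air, but in 61.5% and 55.8% in female hyperoxia, and in at most 0.84% of either class in the male libraries. Whether cells of another sample are mixed into the female hyperoxia library was not tested, and each value given for it, its share, the sex difference and the class by sex term included, rests on its label. Leaving out the cells of female hyperoxia without an Xist UMI gave 1037 genes in place of the 1080 called below and 0 genes for either interaction term, as with all cells. Xcl1, which has the smallest class by hyperoxia p below, did not pass the filter on low counts without these cells and was not tested there.

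The T Reg class was 55.7% of the cells of both classes in female room air (231 of 415 cells, 95% exact binomial interval 50.7 to 60.5%). It was 11.9% in male room air (119 of 1001, 9.95 to 14.1%), 25.4% in female hyperoxia (278 of 1093, 22.9 to 28.1%) and 30.2% in male hyperoxia (312 of 1033, 27.4 to 33.1%). These intervals cover counting error only, and no interval of one library overlapped that of another except those of female and male hyperoxia. The share was 30.2 percentage points lower after hyperoxia than in room air in females and 18.3 points higher in males, with 1 library on each side and no test. Of all cells with a class, the T Reg class was 2.71%, 1.68%, 3.33% and 3.42% in female room air, male room air, female hyperoxia and male hyperoxia, and T cells were 2.16%, 12.5%, 9.75% and 7.91%. The T cell share of all cells ranged more widely between libraries than the T Reg class share, and it was lowest where the T Reg class led, in female room air.

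**Figure D1:**
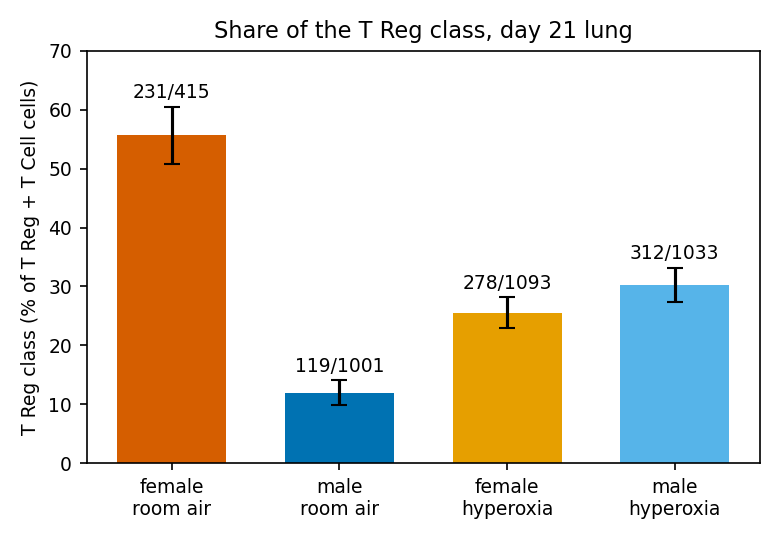
Cells of the T Reg class as a percentage of T Reg and T Cell class cells in each day 21 library (vertical axis from 0), with 95% exact binomial intervals as error bars and cell numbers above the bars. Female room air stands at 55.7% and male room air at 11.9%, with both hyperoxia libraries between them.

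For the comparison of the classes, UMIs were summed per class and library, and each gene was given in CPM, the usual scaling of a gene's UMIs to the total of its class and library. In such sums, fewer cells with a transcript and less of it per cell cannot be told apart. The log2 ratio of the T Reg class over T cells was then taken within each library after scaling by the trimmed mean of M values (TMM), with a prior count of 2, which draws ratios of low genes towards 0. Values are the mean ± SD over the 4 libraries. The classes were made by clustering these same counts, so the differences between them are a description and carry no test. A gene is called higher or lower where its ratio was past 2-fold in that direction in all 4 libraries. Of 10778 genes tested, 1080 (10.0%) were called, 723 higher in the T Reg class (6.71%) and 357 lower (3.31%), and the median ratio over all genes was -0.02. Without female room air, the library with the smallest contrast, 1662 genes were called.

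A Foxp3 UMI was found in a minority of the T Reg class, so the name is used here for the submitters' label and not for a cell type. Foxp3 stood at 33.0, 58.1, 60.7 and 65.7 CPM in the T Reg class of female room air, male room air, female hyperoxia and male hyperoxia, and at 22.1, 6.94, 9.58 and 13.3 CPM in T cells. The class levels did not overlap, but the female room air libraries were close, and the ratio there was 0.40 against 2.03 to 2.72 in the other 3. It had a UMI in 8.66%, 15.1%, 19.8% and 19.6% of T Reg class cells and in 7.61%, 3.29%, 3.80% and 5.13% of T cells. With every cell thinned to 2000 UMIs the shares were 3.52 to 9.65% and 1.35 to 3.26% (at most 4 cells of a library and class left out). The background was low: general capillary endothelial cells and neutrophils, which should lack Foxp3, had a UMI in at most 0.31% of cells, at median depths of 5083.5 to 8693.5 UMIs. Of the 265 cells with a Foxp3 UMI in both classes, 154 (58.1%, 51.9 to 64.1%) lay in the T Reg class and 111 in the T Cell class. In male room air 29 of 47 such cells lay in the T Cell class. The pooled interval covers counting error only and not the spread between libraries. By library, the share in the T Reg class was 38.3% in male room air and 58.8 to 64.0% in the others.

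Of 17 Treg genes listed, 16 passed the filter on low counts, 2 were higher in the T Reg class in all 4 libraries (6.71% of all genes were), 1 was lower (3.31% of all genes) and 13 were neither, with a median ratio of 1.40 (all genes -0.02). Il2ra was higher at 255, 257, 295 and 284 CPM against 20.4, 13.0, 14.7 and 10.6 CPM (log2 ratio 3.99 ± 0.41, SD, n = 4). The actin-capping protein gene Capg was the other (2.86 ± 0.46), and the orphan receptor gene Gpr83 was lower (-4.06 ± 0.48). Ctla4 stood at 233, 413, 337 and 321 CPM in the T Reg class and 204, 68.3, 75.5 and 117 CPM in T cells. The class levels of Ctla4 did not overlap, yet those of female room air were nearly equal (ratio 0.03). Ikzf2, which encodes Helios, was level with the T Reg class in the T cells of female room air (609 against 610 CPM) and at 91.2 to 188 CPM in the T cells of the other libraries. Without female room air, 10 of the 16 genes were past 2-fold higher in all 3 remaining libraries, so this library decided most of the count. Among all genes, with filter and scaling redone without female room air, 1180 of 11738 were higher. Il10 did not pass the filter.

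Naive and recirculating T cell genes were lower in the T Reg class. Of 10 listed, all tested, 9 were lower in all 4 libraries (against 3.31% of all genes), 0 higher (against 6.71%), and the median ratio was -3.20. Lef1, a transcription factor of naive T cells, stood at 101, 150, 172 and 127 CPM in the T Reg class against 966, 1274, 1350 and 1314 CPM in T cells (-3.40 ± 0.17). Its highest T Reg class value lay far below its lowest T cell value. The related factor Tcf7 (-2.73 ± 0.11), the chromatin organizer Satb1 (-3.63 ± 0.30) and the egress receptor S1pr1 (-1.87 ± 0.21) moved the same way. Ccr7, which guides cells into lymph nodes, was also lower but spread widely, at 9.47, 96.1, 80.0 and 6.88 CPM in the T Reg class against 219 to 307 CPM in T cells. In male room air and female hyperoxia 34.9% and 28.7% of the class's Ccr7 UMIs came from 1 cell each, and 14 and 19 cells had any. Ccr9, a gut homing receptor, was the member not called.

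Both CD4 and CD8 coreceptors were lower. Cd8a was at 2.50 to 6.32 CPM against 105 to 128 CPM (-4.82 ± 0.43) and Cd8b1 at 10.4 to 24.5 against 324 to 383 CPM (-4.67 ± 0.50). Cd4 was at 38.9 to 61.8 CPM against 82.3 to 115 CPM (-1.25 ± 0.09). Neither coreceptor had a UMI in 81.0%, 69.7%, 71.2% and 78.8% of T Reg class cells, against 19.0%, 15.1%, 11.5% and 19.0% of T cells. The T Cell class held cells of both lineages, with Cd4 alone in 37.0 to 45.8% and Cd8a or Cd8b1 alone in 31.6 to 41.8% of cells.

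Most genes of the T cell receptor complex and its signalling were not called. Of 17 genes, all tested, 5 were called lower (Trac, Lck, Cd6, Cd28 and Themis), 0 higher and 12 neither, with a median of -1.0. By the same rule 3.31% of all genes were lower and 6.71% higher. Cd3e, a signalling chain of the receptor, was at 295, 336, 288 and 302 CPM in the T Reg class and 440, 475, 447 and 428 CPM in T cells (-0.78 ± 0.05). The difference per cell took another form: Cd3e had a UMI in 50.2%, 51.3%, 48.9% and 47.1% of T Reg class cells and in 97.6 to 99.5% of T cells. Thinned to 2000 UMIs, the shares were 32.8 to 36.5% and 55.8 to 61.0%. In capillary cells and neutrophils the share with a Cd3e UMI was at most 1.34%.

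Genes of ILC2 and type 2 immunity were the list most often higher in the T Reg class. Of 20 listed, 18 passed the filter, 17 were higher in all 4 libraries (against 6.71% of all genes) and 0 lower, with a median ratio of 4.80 (4.98 with genes at 0 in T cells set to their lower bound). The lists were made with earlier results of these data known. Genes with few or no UMIs in T cells, such as Il13, passed the filter only through the T Reg class, so this count is a description. Il1rl1, the interleukin 33 receptor, stood at 334, 308, 315 and 385 CPM in the T Reg class and at 7.48, 0.31, 2.71 and 7.26 CPM in T cells (6.42 ± 1.53). It lies on chromosome 1, 40429570 to 40465415 (GRCm38), a protein-coding gene. Among the other 12 classes with at least 50 cells, which do not include basophils or mast cells, the highest mean was 3.92 CPM, in neutrophils. Gata3, the lineage factor, was at 322 to 375 CPM against 44.3 to 95.2 CPM (2.27 ± 0.40), and Rora, which ILC2 need to develop, at 697 to 867 against 22.8 to 197 CPM (3.55 ± 1.15). Arg1, which breaks down arginine, was at 273, 179, 175 and 218 CPM against 0 to 3.40 CPM (7.04 ± 1.13). Of the type 2 cytokines, Il5 had 145 UMIs in the T Reg class of all libraries and 1 in T cells, and Il13 had 90 and 0, which is at least 83.8-fold higher in the T Reg class against a floor of 3 counts over the 4 libraries. Il4 was the member not called: it was lower in female room air (-1.89) and higher in the other 3 (2.0 to 3.40). The epidermal growth factor family ligand Areg (4.74 ± 1.13), the cytokine Csf2 (5.54 ± 0.84), the heparan sulfate enzyme Hs3st1 (5.27 ± 0.21) and the neuromedin U receptor Nmur1 (3.69 ± 0.59) were higher in every library.

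Calca, which encodes calcitonin gene-related peptide, had 437 UMIs in the T Reg class and 0 in T cells, at least 407-fold higher against the same floor. Its level was 92.6 and 70.0 CPM in female and male room air and 10.4 and 14.1 CPM in female and male hyperoxia, so the room air libraries lay above both hyperoxia libraries. In female room air 78.0% of these UMIs came from 1 of 17 cells with any, and in male room air 36.2% from 1 of 12 cells. A class by hyperoxia term could not be estimated for a gene with no UMI in 1 of the classes.

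Gamma-delta T cell and interleukin 17 genes were higher as well. Of 12 gamma-delta genes listed 11 were tested, 8 were higher in all libraries and 0 lower (median 3.67), and of 11 interleukin 17 (type 17) genes 10 were tested, 9 were higher and 0 lower (median 4.60). Among all genes tested, 6.71% were higher and 3.31% lower. Genes with few or no UMIs in T cells, such as Trdv4 and Il17a, passed the filter only through the T Reg class. These counts are therefore a description, as for the ILC2 list. Trdc, the constant chain of the delta receptor, stood at 455, 185, 172 and 348 CPM in the T Reg class and 14.3, 17.9, 20.8 and 13.3 CPM in T cells (3.77 ± 0.99). Its level was higher in female room air and male hyperoxia than in the other libraries, and every T Reg class value lay above every T cell value. Trdc RNA was not limited to these cells, since 30.5 to 41.3% of NK cells had a UMI of it. Cd163l1, a scavenger receptor of gamma-delta T cells, was at 494, 159, 186 and 334 CPM against 54.4, 4.80, 19.1 and 8.48 CPM (3.93 ± 1.05). Il17a, an interleukin 17 gene, was at 55.4, 55.1, 6.13 and 45.0 CPM and was found in the T cells of female room air alone (5.78 CPM, 0 UMIs in the other 3). The interleukin 23 receptor Il23r (5.37 ± 1.69), the interleukin 1 receptor Il1r1 (5.30 ± 1.06) and the leukotriene B4 receptor Ltb4r1 (6.54 ± 0.91) followed. Ccr6 was the type 17 gene not called, with a ratio of 0.94 in female room air and 3.90 to 5.59 elsewhere. Constant chains of the Tcrg locus are near-identical, so reads may be split between Tcrg-C1 and Tcrg-C2, and their separate values are uncertain, as are those of Trbc1 and Trbc2.

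Il1rl1 and Trdc were seldom found in the same cell. The following division of cells by UMIs of Il1rl1, Trdc and Foxp3 was chosen after their values were seen and is a description. In the T Reg class of female room air, male room air, female hyperoxia and male hyperoxia, 44.6%, 39.5%, 46.0% and 47.8% of cells had Il1rl1 alone. Trdc alone was found in 25.1%, 10.9%, 12.2% and 18.6%, and Foxp3 alone in 2.60%, 5.04%, 9.71% and 9.94%. More than 1 of the 3 was found in 6.49 to 10.9%, and none in 12.8 to 34.5%. In the same order of libraries, 15, 12, 28 and 34 cells had more than 1. Both Il1rl1 and Foxp3 were found in 14, 12, 28 and 29 cells. In the T Cell class 85.3 to 92.9% of cells had none of the 3. The share with Il1rl1 alone varied little between libraries, while that with Foxp3 alone rested on 6, 6, 27 and 31 cells and was lower in both room air libraries than in both hyperoxia libraries, with overlapping 95% intervals for male room air. Of cells with an Il1rl1 UMI, 0 to 2.20% also had Trdc, against 21.7 to 51.3% of those without. Of cells with Trdc, 70.6 to 91.7% had Cd163l1, of cells with Il1rl1, 70.5 to 86.4% had Arg1, and of cells with Foxp3, 95.0 to 100% had Ctla4. Foxp3 was found in 11.9 to 20.3% of the cells with Il1rl1 and in 5.31 to 24.6% of those without, so these transcripts overlapped.

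**Figure D2:**
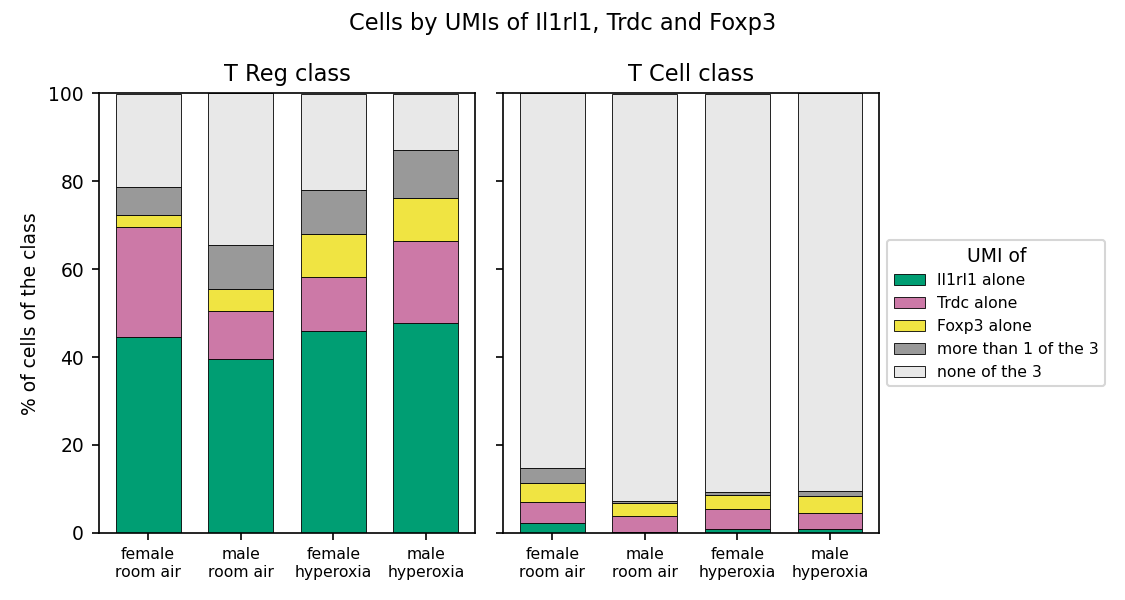
Percentage of cells of the T Reg class (left) and the T Cell class (right) in each day 21 library by which of Il1rl1, Trdc and Foxp3 had a UMI. Il1rl1 alone makes up 39.5 to 47.8% of the T Reg class, and none of the 3 makes up 85.3 to 92.9% of the T Cell class.

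Other genes differed between these kinds of cells. Cd3e had a mean of 19.1 CPM over the libraries in T Reg class cells with Il1rl1 alone, 685 CPM in those with Trdc alone and 527 CPM in those with Foxp3 alone, these last being level in female hyperoxia (553 CPM with Trdc alone and 558 CPM with Foxp3 alone). Trac, the alpha chain, was at 0 to 36.9, 6.97 to 45.1 and 437 to 729 CPM over the libraries in the same order. Cells with Il1rl1 alone had little RNA of either chain, and cells with Trdc alone had Cd3e and little Trac. Gata3 was at 613, 95.4 and 126 CPM, highest with Il1rl1 alone in each library while the order of the other two kinds differed between libraries, and Arg1 at 455 CPM with Il1rl1 alone and 0 with Foxp3 alone. With Trdc alone Arg1 was at 85.1 and 112 CPM in female and male room air and 11.7 and 3.47 CPM in female and male hyperoxia. Il17a in these cells was at 147, 502, 32.7 and 244 CPM in the same order of libraries, and at 0 in the other two kinds. Cd163l1 was at 0 to 4.34, 1364 to 2170 and 0 CPM, and the kinase gene Blk at 0, 609 to 899 and 0 to 11.8 CPM. Cd4 was at 0 to 9.30, 0 to 1.73 and 136 to 201 CPM, and Ctla4 had means of 30.9, 58.3 and 1398 CPM. Il2ra, called higher for the whole class, was at 451 CPM with Il1rl1 alone, 172 CPM with Trdc alone and 145 CPM with Foxp3 alone. Trbc2 was found at 454 CPM even in the cells with Il1rl1 alone, and a UMI of Cd3d, Cd3e, Cd3g, Trac, Trbc1 or Trbc2 was found in 93.6 to 96.8% of all T Reg class cells. Cells with none of the 3 transcripts had intermediate levels of Cd3e (377 CPM), Trac (413 CPM) and Gata3 (182 CPM). Cells with more than 1 of the 3, most of which had Il1rl1 and Foxp3, had means of 487 CPM for Cd3e and 523 CPM for Trac. Their means were 130 CPM for Cd4 and 1419 CPM for Ctla4, the latter near the 1398 CPM with Foxp3 alone.

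**Figure D3:**
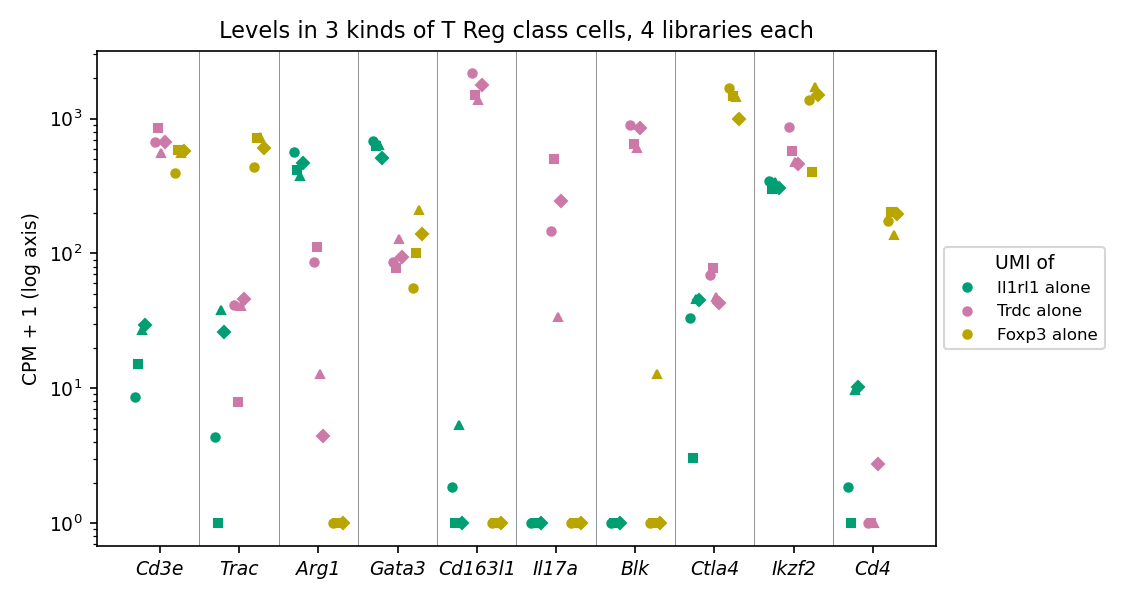
CPM plus 1 (log axis) of 10 genes in T Reg class cells with a UMI of Il1rl1 alone, Trdc alone or Foxp3 alone, with 1 point per day 21 library (circle female room air, square male room air, triangle female hyperoxia, diamond male hyperoxia). Cd3e and Trac are low in cells with Il1rl1 alone, and Trac is low in cells with Trdc alone.

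By the rule for named genes, the 12 with the highest mean ratio were Stab2, Cntn1, Thsd4, Trdv4, Arg1, Olfr1259, Slc7a8, Clnk, Vipr2, Ltb4r1, Il1rl1 and Kcnd2. Stab2, a scavenger receptor best known from liver sinusoids, stood at 303, 200, 245 and 226 CPM in the T Reg class, and T cells had 8 UMIs of it in all against 2655 (8.46 ± 0.79). Its gene is on chromosome 10, 86841198 to 87008025 (GRCm38, protein-coding), and among the same 12 other classes the highest mean was 2.19 CPM, in classical monocytes. The neuronal adhesion gene Cntn1 was at 264, 201, 270 and 247 CPM (8.32 ± 0.84). Trdv4 and the olfactory receptor gene Olfr1259 had 2 UMIs each in T cells against 835 and 696, pooled ratios of 1167 (95% counting interval 322 to 9649) and 972 (268 to 8046). The vasoactive intestinal peptide receptor Vipr2 (6.72 ± 0.65), the amino acid transporter Slc7a8 (6.92 ± 0.75), the potassium channel Kcnd2 (6.37 ± 0.83) and the adaptor Clnk (6.91 ± 0.40) were higher in every library, and Vipr2 was highest in female hyperoxia, at 7.70. Clnk was also high in NK cells, at 1.33 times its mean T Reg class level.

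The 12 with the lowest mean ratio were Dapl1, Ifngas1, Cd8a, Tdrp, Lypd6b, Cd8b1, St8sia1, Gabrr2, Actn1, Igfbp4, Dntt and Tmem108. Dapl1 had 39 UMIs in the T Reg class against 7808 in T cells, at 0 to 8.19 CPM against 157 to 281 CPM (-6.58 ± 1.98). Its large SD came from female hyperoxia, where the T Reg class had 0 UMIs. Ifngas1, an RNA transcribed next to Ifng and counted without a stated strand, was at 0, 0, 2.45 and 0.62 CPM against 83.0, 26, 36.7 and 26.9 CPM (-5.67 ± 1.63). The ganglioside enzyme St8sia1 (-4.53 ± 0.80), the actin cross-linker Actn1 (-4.32 ± 0.53) and the insulin-like growth factor binding protein Igfbp4 (-4.29 ± 0.83) were lower in every library. Dntt, the enzyme that adds bases to receptor genes during rearrangement, had 3 UMIs in the T Reg class and 284 in T cells, a pooled ratio of T cells over the T Reg class of 33.9 (11.5 to 165).

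**Figure D4:**
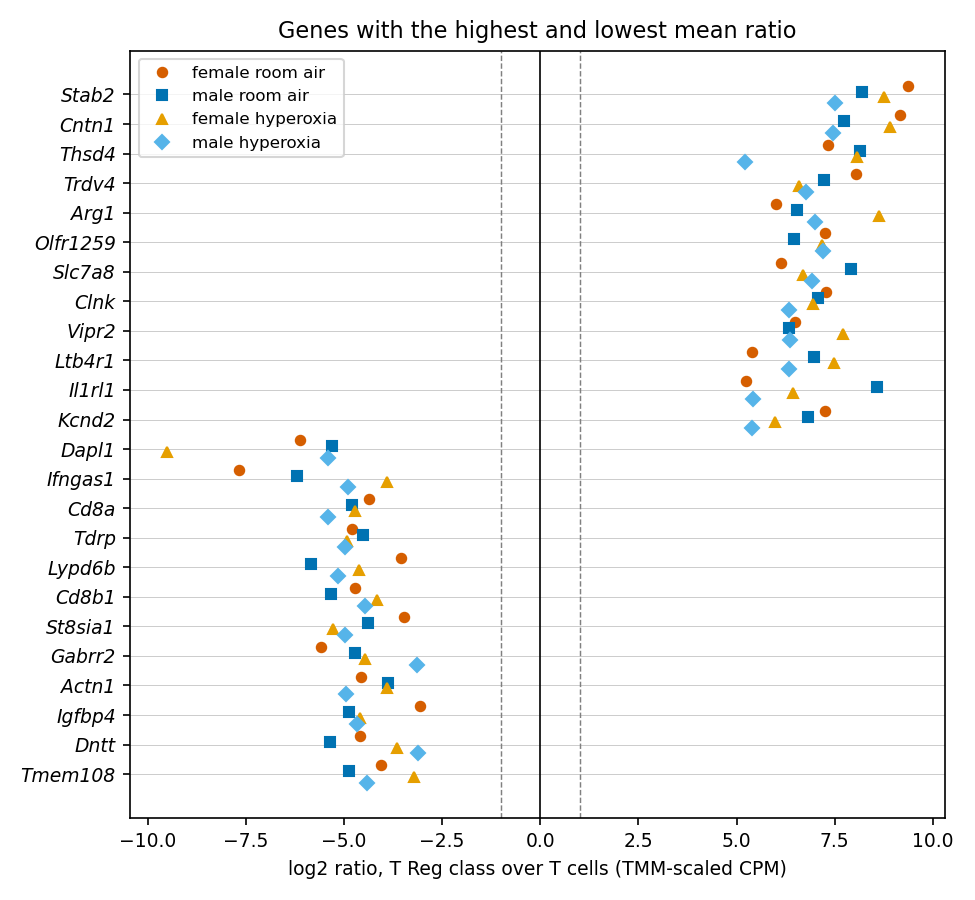
Log2 ratio of the T Reg class over T cells in each day 21 library for the 12 genes with the highest and the 12 with the lowest mean ratio, with dashed lines at 2-fold. All points lie past 2-fold, and those of Dapl1 and Il1rl1 spread the most among the lowest and highest genes.

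Both start sites of Il1rl1 and the start of Cd163l1 are printed here because Il1rl1 defines one kind of cell above and Cd163l1 was high in the cells with Trdc alone. Sequences are from RefSeq (GRCm38.p6), 250 bases before to 50 after the start, all on the plus strand. Capitals mark matches, on either strand, of the letters AGATAA, which Gata3 and its relatives bind, and AGGTCA, bound by Rora. None of the matches printed overlap.
Il1rl1 start site 1, chr1:40429320-40429619: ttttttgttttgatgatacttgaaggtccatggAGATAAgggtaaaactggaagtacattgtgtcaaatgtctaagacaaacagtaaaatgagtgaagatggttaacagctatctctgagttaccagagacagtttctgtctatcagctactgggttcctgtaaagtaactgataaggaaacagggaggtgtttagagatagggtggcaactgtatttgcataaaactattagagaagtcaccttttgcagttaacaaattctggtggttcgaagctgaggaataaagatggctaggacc
Il1rl1 start site 2, chr1:40439379-40439678: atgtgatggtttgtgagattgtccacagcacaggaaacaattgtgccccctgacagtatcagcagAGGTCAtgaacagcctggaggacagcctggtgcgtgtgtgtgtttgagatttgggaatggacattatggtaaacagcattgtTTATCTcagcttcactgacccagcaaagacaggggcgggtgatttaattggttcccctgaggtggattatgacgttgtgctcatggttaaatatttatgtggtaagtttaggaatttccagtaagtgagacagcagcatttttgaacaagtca
Cd163l1, chr7:140218017-140218316: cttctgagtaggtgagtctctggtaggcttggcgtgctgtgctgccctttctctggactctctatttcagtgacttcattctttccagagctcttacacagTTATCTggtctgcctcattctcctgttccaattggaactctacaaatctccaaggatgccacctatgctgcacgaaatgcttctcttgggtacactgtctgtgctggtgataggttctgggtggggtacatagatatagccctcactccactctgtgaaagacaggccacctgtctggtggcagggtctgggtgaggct
Reads from the 3′ end do not show which start was used. Of the 723 genes higher in the T Reg class, 535 had a promoter in the table, and 9.53% of these held the Gata3 letters, against 10.2% of 266 genes lower, 6.4% of 8470 genes tested and 11.4% of all 27025 promoters. For the Rora letters the shares were 13.6%, 15.0%, 12% and 16.0%. For CTTTGA, letters bound by Tcf7 and Lef1, they were 14%, 14.3%, 12.1% and 16.2%. The genes higher and lower had near-equal shares of each, so these letters did not separate the directions.

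Genes of tissue residency and activation were higher or not called. Over all genes tested, 6.71% were higher and 3.31% lower. The counts given here and for the cytotoxic, interferon, cycling and immediate early genes stand beside these shares. Without female room air, with filter and scaling redone, 1180 of 11738 genes were higher and 482 lower. Of 16 listed and tested, 8 were higher and 0 lower, among them the chemokine receptor Cxcr6 (3.62 ± 0.77), the regulator Id2 (2.99 ± 0.52), which innate lymphoid cells need, and Cd44 (2.11 ± 0.42). Cd69, which holds cells in tissue, was not called, at 133 to 225 CPM against 157 to 241 CPM. Of 14 chemokine receptors tested 3 were higher (Ccr2, Ccr8 and Cxcr6) and Ccr7 was lower, but 7 were higher in the 3 libraries without female room air. Of 10 checkpoint genes 2 were higher, the inhibitory receptor genes Pdcd1 (3.50 ± 1.31) and Havcr2, and Btla was lower (-2.09 ± 0.56). The list of 23 cytokine receptors gave 7 higher and 2 lower (Il6ra and Il21r), and Il7r, shared by T cells and innate lymphoid cells, was level in both (0.08 ± 0.15). Of 24 cytokines and ligands tested 12 were higher, including Tnf (2.29 ± 0.30), Csf1 and the RANK ligand Tnfsf11 (2.99 ± 1.40), and the CD30 ligand Tnfsf8 was lower (-3.18 ± 0.66). Lymphocyte transcription factors moved both ways, with 10 of 35 higher (among them Gata3, Rora, Id2, Maf, Zeb2, Prdm1, Sox13, Gfi1 and Ahr) and 9 lower (Eomes, Tcf7, Lef1, Bach2, Klf2, Satb1, Sox4, Foxo1 and Myb), and without female room air 15 were higher.

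Cytotoxic genes were mostly not called: of 14 NK and cytotoxic genes tested 1 was higher (Klrk1, 2.11 ± 0.36), 3 were lower (Klrd1, Prf1 and Eomes) and 10 were neither. Female room air stood apart, with 10 of the 14 past 2-fold lower (4 to 7 in the other libraries) and a summed level of the list of 1246 CPM in T cells (600 to 807 CPM in the others). Among all 10778 genes tested, 768 were past 2-fold lower in female room air and 699 to 868 in each of the others. Of 12 interferon-stimulated genes 4 were lower, Ifit1, Ifit3, Isg15 and Usp18, and 0 higher, or 5 lower and 1 higher without female room air. Their summed level was higher in the T Reg class in male room air (1824 against 1390 CPM) and lower in the other libraries (726 to 1224 against 1299 to 1426 CPM). Of 11 cycling genes tested 3 were higher, with Mki67 at 75.8, 11.2, 34.0 and 27.8 CPM in the T Reg class and 38.1, 2.55, 8.65 and 8.07 CPM in T cells (1.44 ± 0.42, not called). In male hyperoxia 10 of the 11 were past 2-fold higher, against 3 to 5 in the other libraries. Among all 10778 genes tested, 1378 were past 2-fold higher in male hyperoxia and 1081 to 1504 in each of the others. Of 10 dissociation and immediate early genes 2 were higher, Fos (1.47 ± 0.56) and Fosb (3.21 ± 1.49), with a summed level of the list of 1857 to 2303 CPM against 986 to 1303 CPM.

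**Figure D5:**
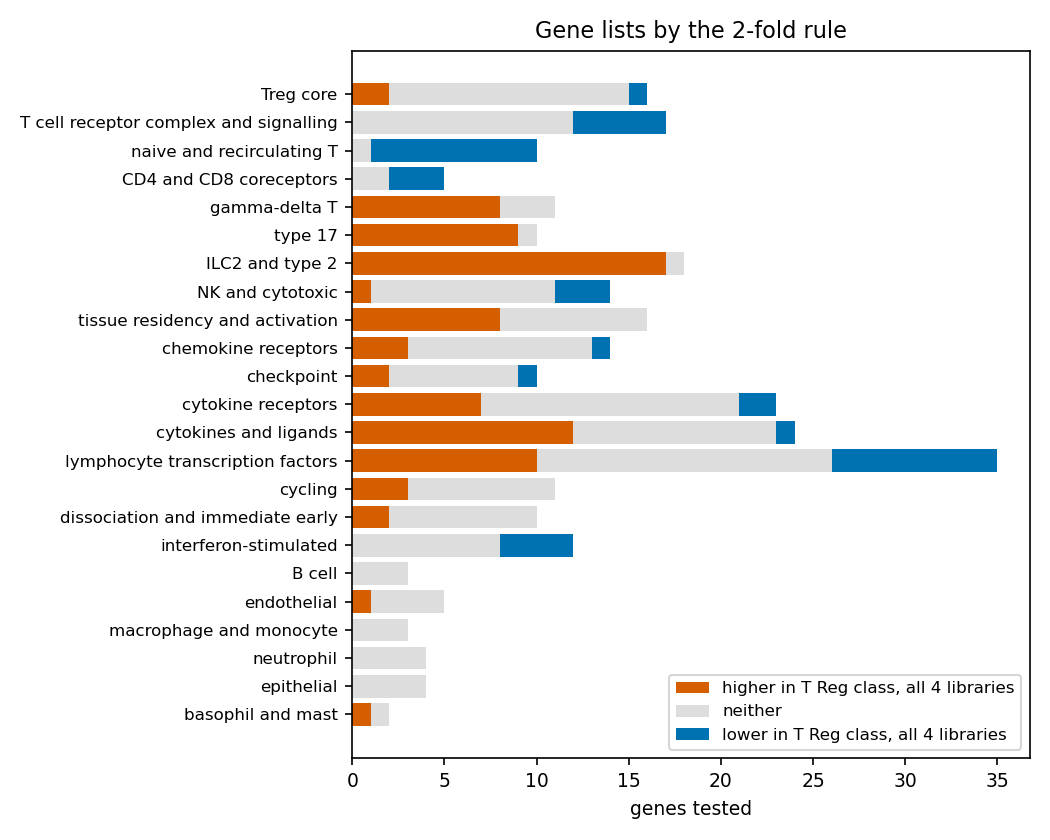
Number of tested genes of each list (horizontal axis) that were past 2-fold higher or lower in the T Reg class in all 4 day 21 libraries, or neither. The ILC2 and type 2 list has 17 of 18 higher and the naive and recirculating list 9 of 10 lower. Of all genes tested, 6.71% were higher and 3.31% lower.

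Markers of other cell types were present in both classes and differed between libraries, and their part in the class difference was not tested. Among all genes tested, 6.71% were higher and 3.31% lower, and 1180 of 11738 were higher without female room air, with filter and scaling redone. Of 5 endothelial genes tested 1 was higher (Epas1, 1.70 ± 0.33), or 2 without female room air, and their summed level was 281 to 485 CPM in the T Reg class and 120 to 217 CPM in T cells. Of 2 basophil and mast cell genes tested Cpa3 was higher, and Mcpt8 and Ms4a2 did not pass the filter. The summed level of the 4 was 18.9, 23.8, 31.6 and 147.6 CPM in the T Reg class and 1.94 to 4.57 CPM in T cells. In male hyperoxia Cpa3 alone was at 117 CPM, in 24 cells. Neutrophil genes (4 tested, 0 called) summed to 497, 57.3, 501 and 76.3 CPM in the T Reg class and 542, 48.2, 361 and 832 CPM in T cells. B cell (3 tested), macrophage (3) and epithelial (4) genes gave 0 calls, with summed levels of 152 to 319, 127 to 241 and 121 to 172 CPM in the T Reg class and 214 to 261, 163 to 192 and 79.9 to 122 CPM in T cells. Fibroblast genes (4 listed, 0 tested) summed to at most 8.76 CPM in either class. Doublets called by Scrublet were 0.84 to 2.88% of the T Reg class and 0.11 to 3.80% of T cells, and without them 1090 genes were called.

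Hyperoxia and sex had no part in the rule that chose the cells, so whether the class difference changed with either was tested, with edgeR's quasi-likelihood test on the 8 summed profiles (library as a block, 1 residual degree of freedom). The class by hyperoxia term gave 0 genes of 10778 (0%) at a Benjamini-Hochberg adjusted p under 0.05, with 201 at an unadjusted p under 0.05, and DESeq2 gave 1. The class by sex term gave 0 (0%), with 262 at an unadjusted p under 0.05, and DESeq2 gave 0. With no difference at all, a share of 0.05 of the 10778 genes would be expected at such an unadjusted p. The 201 and the 262 genes were both below that share. In fits without the other class term, class by hyperoxia calls appeared on leaving out either room air library. They ran mostly towards a lower ratio after hyperoxia without female room air and mostly towards a higher ratio without male room air. For class by sex, calls appeared on leaving out female room air or female hyperoxia. Such fits leave a lone library in an arm, which is assumed to vary like the others. The make-up of the T Reg class also differed between libraries (Trdc alone 10.9 to 25.1%, Foxp3 alone 2.60 to 9.94% of cells), and its part in these terms was not tested. With a single pool per sex and treatment, no spread between replicate pools could be measured. The 1 residual degree of freedom is how far the change of the class difference with hyperoxia differed between the sexes. A response to hyperoxia that differs by sex is therefore counted as spread in these p-values.

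The 5 genes with the smallest p of the class by hyperoxia term were Xcl1, Ccr9, Blk, Atp1b1 and Tyrobp. The chemokine gene Xcl1 was at 0.35, 2.98, 75.1 and 35.0 CPM in the T Reg class and 86.7, 32.7, 18.3 and 2.69 CPM in T cells. Its class ratio was thus below 0 in both room air libraries and above 0 in both hyperoxia libraries, a difference of 8.27 ± 0.50 (SE) on the log2 scale, edgeR adjusted p = 0.102 and DESeq2 adjusted p = 3.4e-11. These UMIs came from few cells: 92.7% and 93.8% of those of the T Reg class in female and male hyperoxia, and 88.6% and 94.1% of those of T cells in female and male room air, lay in 1 cell each. For Ccr9 the ratio was -1.15 and -0.34 in female and male room air and -3.28 and -2.85 in female and male hyperoxia, a difference of -2.39 ± 0.27 (SE, edgeR adjusted p = 1). Atp1b1, a sodium pump subunit, had ratios of -1.78 and -1.91 in room air and -3.24 and -3.34 in hyperoxia. Blk and the signalling adaptor Tyrobp were the others. For the class by sex term the 5 were Cd163l1, Tcrg-C1, Stfa1, Ifitm1 and Plcb1, each with an edgeR adjusted p of 1. With doublets left out, this term moved from -2.43 to -0.93 for Plcb1 and from 2.57 to 1.71 for Ifitm1. Stfa1 was not tested there, while Cd163l1 stood at -1.89 and Tcrg-C1 at -1.35. The class by hyperoxia term of Tyrobp moved from -1.34 to -0.80. Without doublets that term was 7.39 for Xcl1, -2.77 for Ccr9, 2.29 for Blk and -1.64 for Atp1b1. Cd163l1 had ratios of 3.00 and 3.04 in the female libraries and 4.66 and 5.00 in the male libraries, a female minus male difference of -1.88 ± 0.19 (SE). Its CPM in T cells was higher in both female libraries (54.4 and 19.1) than in both male ones (4.80 and 8.48), while its T Reg class values overlapped between the sexes. For Foxp3 the class by hyperoxia term was 0.66 ± 0.65 and for Il1rl1 it was -0.88 ± 1.08 (SE, edgeR adjusted p = 1 for each). Each SE given with these terms is the size of the log2 difference divided by the square root of edgeR's F statistic. DESeq2 gave larger SEs for the terms of Xcl1 (1.06), Ccr9 (0.75) and Cd163l1 (0.46).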

How the data were processed

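UMI counts per gene and cell barcode were used as the authors deposited them, from 4 libraries of dissociated, live-sorted lung at postnatal day 21, prepared with 10x Genomics 3′ v3.1 chemistry per the labels' protocols. The counts were made with Cell Ranger 7.0.1 per the file headers, and the submitters' processing notes also name Cell Ranger 6.0.0, Seurat 4.1.1 and the mm10 build. Counting of intronic reads, use of strand, removal of doublets and the clustering steps are not given in the sources used here. Cell classes were taken from the deposited annotation.

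Libraries held 122173482 to 137510028 UMIs. The 8 sums per class and library held 1343003 to 9794326. Genes passed edgeR's filterByExpr with the class as the group, so a gene present in a single class could pass. Such a gene, in any list, could be called only in the direction of that class. The analysis used edgeR 4.0.16, DESeq2 1.42.0, R 4.3.3, and scanpy 1.11.5 for Scrublet, and the fits were tested on simulated data. There, class by hyperoxia recovered 27 of 100 genes changed by a log2 size of 1 and 78 of 100 changed by 2, with 8 false calls. The changed genes were drawn from those with a mean fitted count above 20. The simulated counts held no response to hyperoxia that differed by sex, which in the real counts is taken as spread. The recovery in the real counts was therefore not measured. The all-library rule recovered 8 and 96 of 100, with 0 false calls. A log2 size of 1 lies at the 2-fold limit of this rule, so its low recovery at that size follows from the rule itself. The class by hyperoxia test also missed most of the simulated 2-fold changes. The library is the block that pairs the classes, since both came from the same pool of mice. Benjamini-Hochberg adjustment ran over all genes tested. The gene lists and the choice of classes were made with earlier results of these data known. Named genes were the 12 highest and 12 lowest mean ratios among called genes with at least 20 UMIs in every library in the higher class, the 5 smallest p of each interaction term, and list members; mitochondrial, ribosomal and haemoglobin genes and genes with only Gm or Rik names were not named by ratio or p. Intervals for shares are exact Clopper-Pearson at 95% and, like floors of 3 counts, cover counting error only. Coordinates are from GENCODE M21 (GRCm38). The day 1 libraries were not used here, since their annotation has neither class. Some genes of the lists are counted but not reported here by name.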

Additional observations from a re-analysis of the deposited data

Results flagged for a closer look

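The share of the T Reg class among both classes moved in opposite directions with hyperoxia, by -30.2 percentage points in females and 18.3 points in males. Among all cells with a class, the T Reg class was higher after hyperoxia in both sexes, at 3.33% against 2.71% in the female libraries and 3.42% against 1.68% in the male ones. T cells stood at 9.75% after hyperoxia against 2.16% in room air in the female libraries, and at 7.91% against 12.5% in the male ones. Each direction rests on 1 library per group, and the difference between the sexes was not tested. Female room air had both the highest share and the fewest T cells, with the deepest T cells (median 15432 UMIs).

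In 13 of 256 log2 ratios checked (genes of the lists and named genes), 1 library lay far from the other 3, and chance alone gives about 1 in 20 such groups. Of the 13, 5 lay in female room air. There Tnfrsf4 (-0.24 against 2.39 to 2.86 in the other 3) and Tnfrsf9 (-0.25 against 2.77 to 2.95), both tumour necrosis factor receptors of activated and regulatory T cells, were level between the classes. Their T cell values in that library were 24.8 and 11.6 CPM, against at most 11.7 and 6.05 CPM in the other T cells, and their T Reg class values were the lowest of the 4. Ahr, a transcription factor that senses aromatic compounds, had a ratio of 1.77 in female room air, the ligand gene Tnfsf14 had 1.95, and Igfbp4 had -3.06, each nearer 0 than in the other 3 libraries.

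In male hyperoxia Cpa3, a mast cell protease, had a ratio of 6.99 against 3.99 to 4.46. The neutrophil genes S100a8 and S100a9 had -3.50 against -0.36 to -0.06 and -3.77 against -0.26 to 0.26. The S100a9 level in the T cells of that library was 465 CPM and that in its T Reg class 39.7 CPM. In male room air Fos had a ratio of 2.30, Olfr1259 of 6.46 and the surfactant gene Sftpb of 0.66, and in female hyperoxia S1pr1 had -1.55 and Vipr2 7.70.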

How the results depend on the processing

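Of 256 genes checked, none of the 115 called ones changed direction under any of up to 16 settings, and 116 of 4048 ratios moved by more than 1 SD. Called genes were past 2-fold in the same direction in all 4 libraries by choice, so a change of direction was hardly possible. Changes of direction in the genes not called were not counted. The 1080 genes past 2-fold in all 4 libraries became 691 with 119 cells per class and library (660 shared), where fewer genes were tested, and 1154 to 1662 with 1 library left out, the highest without female room air (1079 shared). Tests in place of the fold rule called 4988 genes (edgeR with the library as a replicate block), 4873 (edgeR without the replicate block) and 3975 (DESeq2 with the block), and each contained all 1080. These tests ask for any difference, not 2-fold, and are not tests of classes made from the same counts.

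Class by hyperoxia gave 0 genes, 1 by DESeq2 (Xcl1), 4 without a filter on low counts (Xcl1, Ccr9, Penk and Adgrg6) and 0 to 330 with 1 library left out. Class by sex gave 0, 1 without a filter (Cd163l1), 4 with equal cells (Dapl1, Tcrg-C1, Tcrg-C2 and Stfa1) and 0 to 95 with 1 library left out. With 1 library left out the lone library of an arm is assumed to vary like the others, and the other class term is dropped. Penk, Adgrg6 and Tcrg-C2 are named here after their values were seen. The cause of these changes was not tested. The 4 class shares changed by less than their counting intervals in all 16 alternatives run. Thinning to 2000 UMIs moved 138 of 160 shares of cells with a marker UMI, so such shares depend on depth.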

Other observations

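Of cells with a Trdc UMI in both classes, 85.7%, 27.1%, 47.2% and 69.2% lay in the T Reg class in female room air, male room air, female hyperoxia and male hyperoxia (60 of 70, 13 of 48, 34 of 72 and 63 of 91 cells). Such shares depend on the sizes of the classes. The T Reg class was 55.7%, 11.9%, 25.4% and 30.2% of the cells of both classes in these libraries, which ranks them as the Trdc shares do. Trdc alone was found in 3.61 to 4.89% of T Cell class cells. For Il1rl1 the share in the T Reg class was 92.9 to 96.7% in every library. Of cells with a Cd163l1 UMI, 65.2%, 27.5%, 36.5% and 66.7% lay in the T Reg class in the same order of libraries (60 of 92, 11 of 40, 31 of 85 and 52 of 78 cells). In T cells with Trdc, Cd163l1 was found in 0 of 10, 2 of 35, 6 of 38 and 2 of 28 cells, against 55 of 60, 11 of 13, 24 of 34 and 51 of 63 in the T Reg class. Of T cells with a Foxp3 UMI, 69 to 89.2% had Ctla4, against 18.3 to 35.3% of T cells without. Of the few T cells with Il1rl1, 17 of 35 also had Foxp3.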
